A study of Saccharomyces cerevisiae and Saccharomyces paradoxus and Saccharomyces mikatae with 10 samples.

Results

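The genes of purine nucleotide synthesis described here were taken by systematic name: ADE4 (YMR300C), ADE5,7 (YGL234W), ADE8 (YDR408C), ADE6 (YGR061C), ADE2 (YOR128C), ADE13 (YLR359W), ADE17 (YMR120C), ADE12 (YNL220W) and AAH1 (YNL141W). Of these 9 genes, 8 had values among the 4325 genes of the authors' table, and ADE2 is not analysed here. Polyadenylated RNA was sequenced from 9 yeast strains, all grown at 30 °C in synthetic oak exudate medium, a dilute sugar medium with yeast extract and peptone, and harvested in mid-log phase. The 6 Saccharomyces cerevisiae strains were YPS606 and DBVPG1788, both from wild habitats, DBVPG6040 from fruit juice, Y9 from a distillery, BC187 from wine, and YJM145, a clinical isolate. The 2 S. paradoxus strains, N17 and N44, and the S. mikatae strain IFO1815 were also from wild habitats. No strain carried a labelled mutation or treatment. The study set relatedness between the strains against similarity of their habitats.

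Purine nucleotides are built stepwise on ribose phosphate until inosine monophosphate (IMP) is formed, and IMP is then turned into AMP or GMP. Cells can also salvage purine bases from the medium. In S. cerevisiae the transcription factors Bas1 and Pho2 act together on many ADE genes, and the genes are known to be repressed when adenine is supplied. The Bas1 core motif, TGACTC, is contained in TGACTCA, the motif of the amino acid starvation regulator Gcn4.

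Each strain had 1 value per gene, in FPKM (fragments relative to gene length and library size), so levels can be set side by side between genes, and the spread quoted below is between strains, not between cultures of a strain. The value of YPS606 joins 2 libraries. Total fragments implied by the values ranged from 57.9 M in Y9 to 72.4 M in BC187 (M for mega), with 153 M in YPS606, and the depth of N17, N44 and IFO1815 is unknown. The purine gene values of S. cerevisiae rested on 5473 to 90601 implied fragments each. IFO1815 had 426 genes listed at 0, against 1 to 5 in each of the other strains, and none of the purine genes was among them. For S. paradoxus and S. mikatae, the genome that the reads were aligned to is not given in the sources used here.

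The upstream sequences are shown first because the motif shared by most of these genes lies in them. Within the 300 bases before the start codon in the R64 reference of S. cerevisiae (RefSeq), searched on both strands, TGACTC was found in 6 of the 8 genes with values. The same motif was found upstream of 12 of 32 other genes listed around the pathway (37.5%). Of 4284 genes with values and a reference entry, 352 held it (8.22%). The 12 include HIS1 and HIS7, which were listed as histidine genes with Bas1 sites, so the 37.5% was partly fixed by the choice of genes. The 32 also include the regulators BAS1, PHO2 and GCN4. ADE5,7 had 2 matches, 184 and 217 bases before the start codon, and ADE8 had 2, at 167 and 181 bases. ADE6, ADE13, ADE17 and ADE12 had 1 match each, at 276, 216, 177 and 222 bases, those of ADE13 and ADE12 on the opposite strand. The match of ADE12 was the one that lay inside TGACTCA, which 2.78% of genes carried. The letters TGACTC are not in this window of ADE4 or AAH1. Over the 6 S. cerevisiae strains these 2 genes had a correlation (Pearson's r) of 0.92. Among pairs in which both genes hold matches, r ran from −0.35 (ADE8 with ADE12) to 0.92 (ADE5,7 with ADE17). Whether the motif is related to the levels was not tested. ADE5,7, ADE8 and ADE17 are printed because they hold matches and their levels correlated within S. cerevisiae, and ADE13 and ADE12 as the pair with the highest correlation over all strains. They lie at chrVII:56182-56481 (plus strand), chrIV:1288860-1289159 (minus strand), chrXIII:509281-509580 (minus strand), chrXII:843982-844281 (plus strand) and chrXIV:234113-234412 (plus strand). Each is read 5′ to 3′ toward its gene, and capitals mark TGACTC or its reverse complement, GAGTCA. The letters are those of the reference strain, not of the strains sequenced.
ADE5,7: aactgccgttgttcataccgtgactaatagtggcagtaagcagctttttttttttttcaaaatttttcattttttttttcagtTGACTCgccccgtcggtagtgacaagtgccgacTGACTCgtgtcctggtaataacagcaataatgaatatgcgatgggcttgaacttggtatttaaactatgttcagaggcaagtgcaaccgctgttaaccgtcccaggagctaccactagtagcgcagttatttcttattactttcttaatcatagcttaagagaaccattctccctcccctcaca
ADE8: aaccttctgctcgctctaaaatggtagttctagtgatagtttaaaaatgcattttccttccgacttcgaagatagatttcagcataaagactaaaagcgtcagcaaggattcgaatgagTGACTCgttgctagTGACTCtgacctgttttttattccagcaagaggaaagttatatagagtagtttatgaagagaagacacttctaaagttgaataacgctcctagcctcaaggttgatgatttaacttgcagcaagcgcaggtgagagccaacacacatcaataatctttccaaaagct
ADE17: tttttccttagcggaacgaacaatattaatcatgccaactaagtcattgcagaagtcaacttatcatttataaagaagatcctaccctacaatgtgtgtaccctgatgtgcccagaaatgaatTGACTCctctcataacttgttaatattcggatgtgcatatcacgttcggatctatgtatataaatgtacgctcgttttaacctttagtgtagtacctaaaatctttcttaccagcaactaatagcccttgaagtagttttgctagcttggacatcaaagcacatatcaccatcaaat
ADE13: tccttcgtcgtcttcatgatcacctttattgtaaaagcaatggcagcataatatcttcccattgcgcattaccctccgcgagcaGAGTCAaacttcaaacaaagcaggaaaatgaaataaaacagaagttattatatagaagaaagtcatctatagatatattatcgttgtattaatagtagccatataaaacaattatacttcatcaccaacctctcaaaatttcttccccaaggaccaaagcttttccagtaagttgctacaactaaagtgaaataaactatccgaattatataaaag
ADE12: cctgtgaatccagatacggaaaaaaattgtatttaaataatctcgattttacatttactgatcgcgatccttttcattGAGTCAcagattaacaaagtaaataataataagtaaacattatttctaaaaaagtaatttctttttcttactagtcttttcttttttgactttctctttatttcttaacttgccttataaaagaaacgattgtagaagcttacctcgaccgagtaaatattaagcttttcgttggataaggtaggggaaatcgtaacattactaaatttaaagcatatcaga

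**Figure D1:**
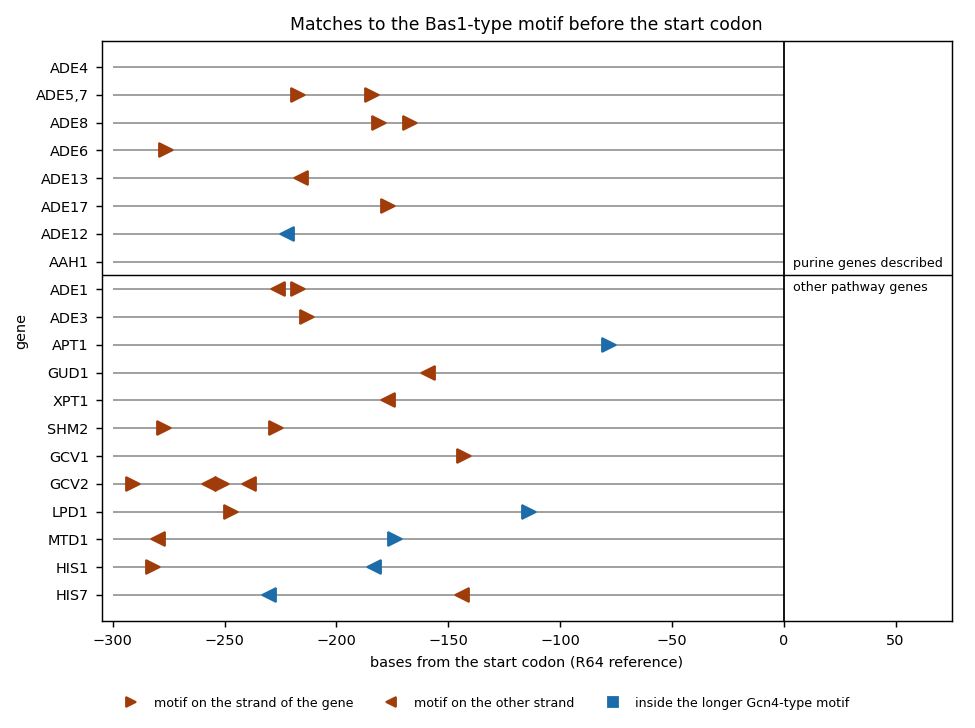
Position of each TGACTC match in the 300 bases before the start codon (x axis, bases from the start codon; 1 line per gene) in the R64 reference. Of the 8 purine genes with values, 6 hold a match, ADE5,7 and ADE8 hold 2 each, and no match is drawn for ADE4 or AAH1; blue marks lie inside TGACTCA.

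ADE4 encodes the amidotransferase that catalyses the first committed step of the pathway (R64 chromosome XIII, 865559 to 867091, minus strand). In S. cerevisiae its level was 91.3 FPKM in YPS606, 158 in DBVPG1788, 131 in DBVPG6040, 165 in Y9, 100.5 in BC187 and 163 in YJM145. N17 had 106, N44 273 and IFO1815 266 FPKM. N44 and IFO1815 stood well above all other strains, and YPS606 and BC187 were lowest. In RNA from a whole culture, a lower level in every cell and expression in fewer cells cannot be told apart. The S. cerevisiae mean was 135 ± 32.6 FPKM (SD, n = 6), with a 1.81-fold range.

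ADE5,7 encodes a bifunctional enzyme that acts at the second and the fifth step (chromosome VII, 56482 to 58890, plus strand). Its levels were 246 FPKM in YPS606, 404 in DBVPG1788, 362 in DBVPG6040, 323 in Y9, 260.1 in BC187 and 377 in YJM145, with 187 in N17 and 510.4 in N44. IFO1815 had no value. N44 was highest and N17 lowest of the 8 strains, with all S. cerevisiae strains between them. Their mean was 329 ± 64.5 FPKM (SD, n = 6).

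ADE8 encodes the glycinamide ribotide transformylase of the third step (chromosome IV, 1288215 to 1288859, minus strand). It reached 136 FPKM in YPS606, 300.5 in DBVPG1788, 271 in DBVPG6040, 159.8 in Y9, 149 in BC187 and 226 in YJM145, against 91.6 in N17, 215 in N44 and 259 in IFO1815. Here DBVPG1788 and DBVPG6040, not N44, were the highest strains. The 2.20-fold range within S. cerevisiae was wider than that of every other purine gene except AAH1, around a mean of 207 ± 68.9 FPKM (SD, n = 6).

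ADE6 encodes the formylglycinamidine ribotide synthetase of the following step (chromosome VII, 611889 to 615965, minus strand). Levels were 119 FPKM in YPS606, 155 in DBVPG1788, 119.9 in DBVPG6040, 161 in Y9, 109.8 in BC187 and 152 in YJM145. S. paradoxus N17 had 123 and N44 337 FPKM, and IFO1815 had 209. The S. cerevisiae strains fell into a narrow 1.47-fold range (136 ± 22.3 FPKM, SD, n = 6) that included N17 and lay below IFO1815 and N44.

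ADE13 encodes adenylosuccinate lyase, an enzyme of both IMP synthesis and the AMP branch (chromosome XII, 844282 to 845730, plus strand). Its levels were 354 FPKM in YPS606, 371 in DBVPG1788, 366 in DBVPG6040, 616 in Y9, 324 in BC187, 441 in YJM145, 314 in N17, 754 in N44 and 515 in IFO1815. In every strain ADE13 had the highest level of the 6 purine genes that were valued in all 9. Y9 was the one S. cerevisiae strain above IFO1815, and N44 was higher than Y9. The S. cerevisiae mean was 412 ± 107 FPKM (SD, n = 6).

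ADE17 encodes 1 of 2 similar enzymes that close the purine ring to give IMP, the other being ADE16 (chromosome XIII, 507502 to 509280, minus strand). How reads shared by the pair were assigned is not given in the sources used here, so its level is uncertain to that extent. ADE17 was at 302 FPKM in YPS606, 482 in DBVPG1788, 538 in DBVPG6040, 481 in Y9, 344 in BC187, 544 in YJM145 and 629 in IFO1815, and the S. paradoxus strains had no value. YPS606 and BC187 were again the lowest strains, apart from the other 4 of their species. The S. cerevisiae mean was 448 ± 102 FPKM (SD, n = 6). ADE16 moved differently, with 171 FPKM in YPS606 and 125 in Y9 as the highest and the lowest S. cerevisiae levels.

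ADE12 encodes adenylosuccinate synthase, which takes IMP toward AMP (chromosome XIV, 234413 to 235714, plus strand). It was the least variable of these genes, with 232 FPKM in YPS606, 232 in DBVPG1788, 225 in DBVPG6040, 324 in Y9, 234 in BC187, 239 in YJM145, 223 in N17, 317 in N44 and 256 in IFO1815. Y9 and N44 stood above the other 7 strains, which lay within 223 to 256 FPKM. Over the 9 strains the SD of its log2 level was 0.21, against a median of 0.44 for all genes, and 5.50% of genes had a lower SD.

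AAH1 encodes adenine deaminase, a salvage enzyme that converts adenine to hypoxanthine (chromosome XIV, 359596 to 360639, plus strand). Its levels were 68.1 FPKM in YPS606, 145 in DBVPG1788, 89.7 in DBVPG6040, 187 in Y9, 96.5 in BC187, 165 in YJM145, 131 in N17, 285 in N44 and 102 in IFO1815. YPS606 was lowest and N44 highest. AAH1 had the widest range of these genes within S. cerevisiae, 2.74-fold around a mean of 125 ± 47.1 FPKM (SD, n = 6), and 91.5% of all genes had a lower SD in that species. IFO1815, among the highest 3 strains for each of its other 6 valued genes, was in the middle for AAH1.

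**Figure D2:**
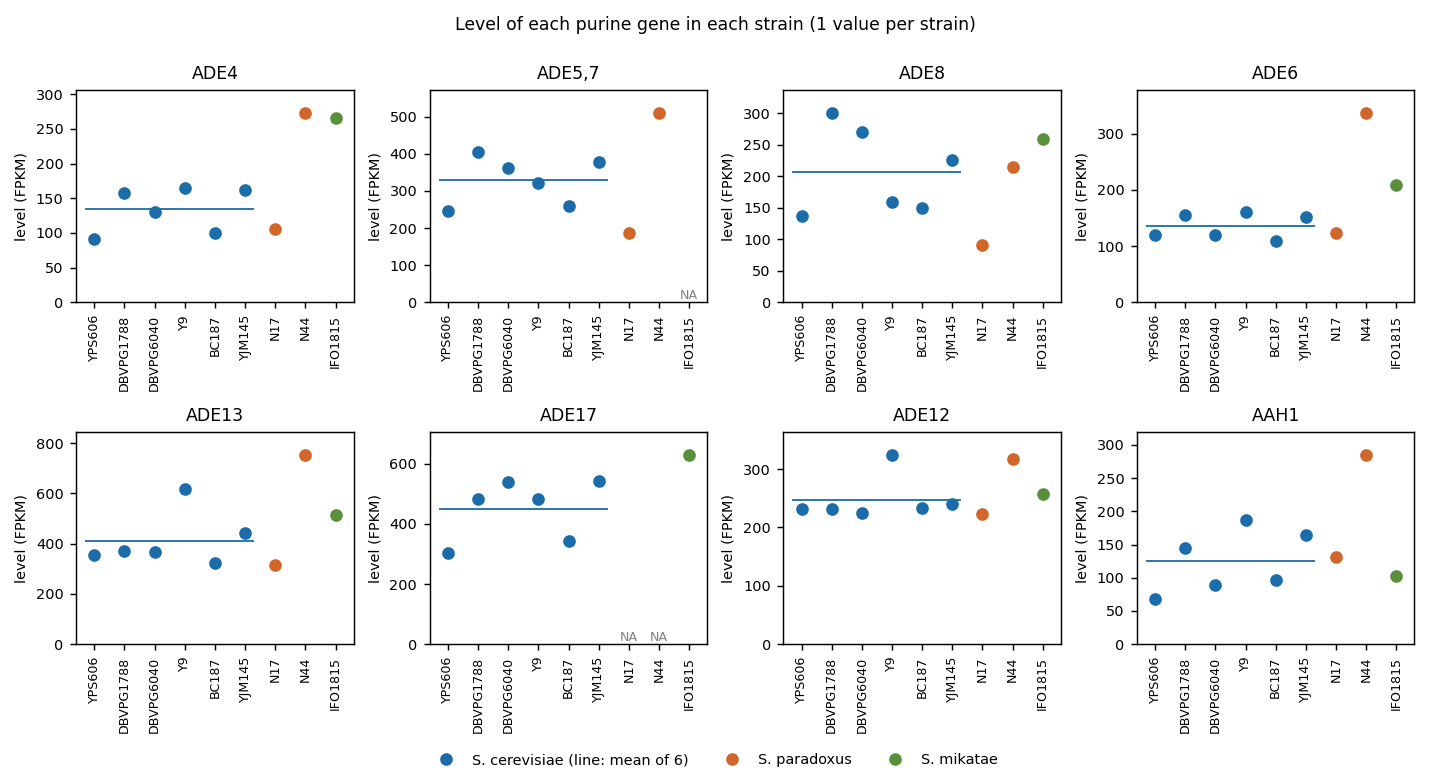
Level of each purine gene (y axis, FPKM, starting at 0) in each of the 9 strains, 1 point per strain; the line is the mean of the 6 S. cerevisiae strains, and NA marks a strain with no value. N44 is the highest strain for 5 of its 7 valued genes, and YPS606 and BC187 are among the lowest 3 strains for 7 of 8 genes each.

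The order of the strains was similar for many of these genes, but not for all. DBVPG1788 was highest of the 9 strains for ADE8 and at rank 7 for ADE12. Y9 was highest for ADE12 and at rank 6 for ADE8. N44 was highest for 5 of its 7 valued genes, and N17, of the same species, was lowest for 4 of 7. YPS606 was lowest for 3 of 8. BC187 and YPS606 were each among the lowest 3 strains for 7 of 8 genes, and Y9 was among the highest 3 for 5 of 8. A mean deviation was taken over the 6 genes valued in all 9 strains, as log2(FPKM + 1) minus the mean of each gene over strains. It was 0.74 in N44, 0.27 in IFO1815, 0.23 in Y9, 0.11 in YJM145, 0.10 in DBVPG1788, −0.16 in DBVPG6040, −0.39 in BC187, −0.41 in N17 and −0.48 in YPS606. All 6 genes were above their own mean in N44, and 0 of 6 were in YPS606 or BC187. The median deviation of all 4239 genes in the same strains ran from −0.18 in YPS606 and IFO1815 to 0.33 in N17 and 0.28 in N44. N17 was therefore low for the purine genes while its genes as a whole sat high on this scale.

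**Figure D3:**
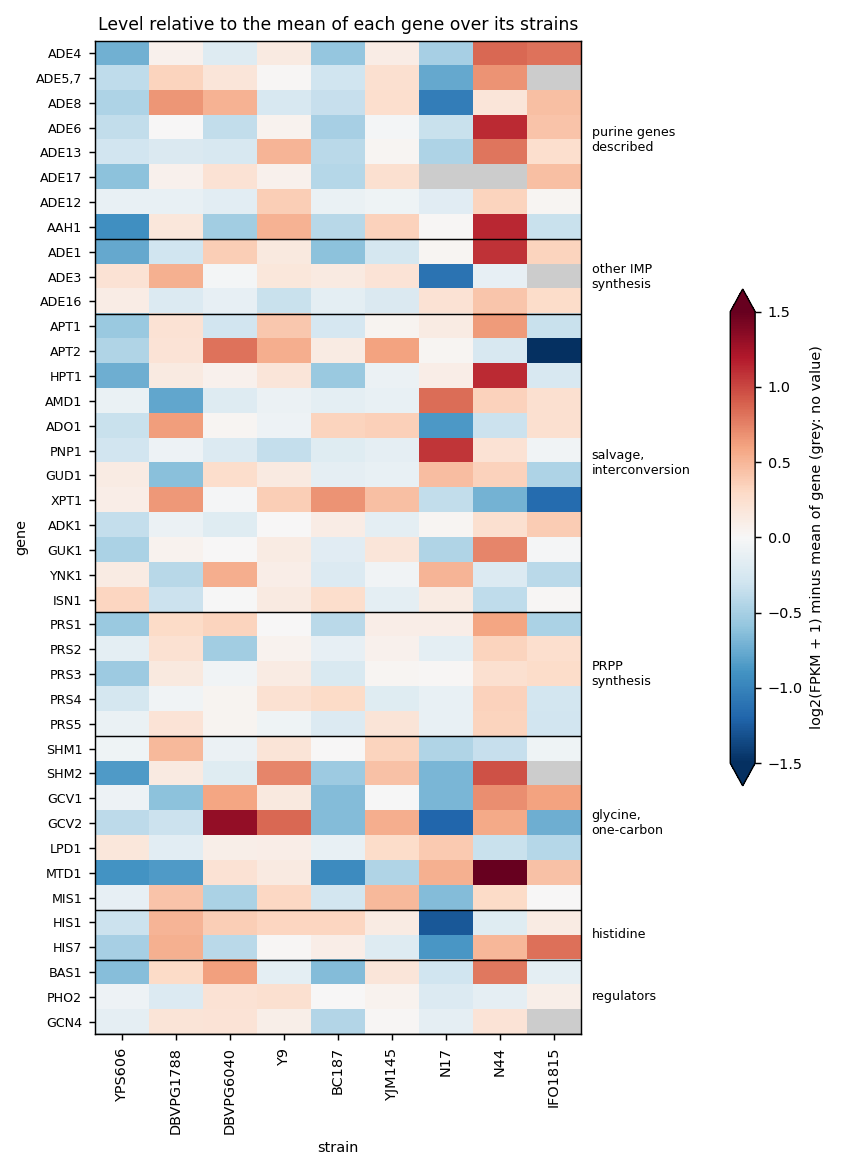
Level of each purine gene and each other listed gene (rows) in each strain (columns), as log2(FPKM + 1) minus the mean of the gene over its strains; grey marks no value and the scale ends at 1.5 in either direction. The N44 column is above the mean for all 7 valued purine genes and the YPS606 column is below it for all 8.

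The 2 S. paradoxus strains differed more in these genes than in most others. N44 exceeded N17 by 2.57-fold for ADE4, 2.73-fold for ADE5,7, 2.35-fold for ADE8, 2.74-fold for ADE6, 2.40-fold for ADE13, 2.17-fold for AAH1 and 1.42-fold for ADE12. At least 2-fold higher levels in N44 were thus seen for 6 of the 7 valued genes, against 130 of 4292 genes tested (3.03%). In the other direction the counts were 0 of 7 and 338 of 4292 (7.88%). On the log2(FPKM + 1) scale the median difference was 1.26 for the purine genes and −0.032 for all genes. There was 1 culture of each strain, so the difference has no replicate check and no test was made.

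Other genes around the pathway were counted for the same pair. BAS1, the activator of the ADE genes, had 37.1 FPKM in N44, 2.18-fold above N17, whereas its partner PHO2 had 31.1 FPKM in N17 and 32.8 in N44, and GCN4 had 1319 and 1673. Of 7 genes of glycine and one-carbon supply, which feed carbon into the purine ring, 4 were at least 2-fold higher in N44. SHM2, the cytosolic serine hydroxymethyltransferase, had 394 FPKM in N17 and 1234 in N44, and MTD1, a methylenetetrahydrofolate dehydrogenase, had 212 and 525.6. GCV1 and GCV2, subunits of glycine decarboxylase, were at 53.9 and 30.8 in N17 and at 142 and 107 in N44. Both measured histidine genes were higher, HIS1 at 151 and 323 FPKM and HIS7 at 32.0 and 84.0. Of the other IMP synthesis genes, ADE1 had 312 FPKM in N17 and 649 in N44, ADE3 102 and 204, and ADE16 184 and 211. The 5 genes of PRPP synthesis, which make the ribose phosphate donor, did not reach 2-fold, and 2 of 12 salvage and interconversion genes did. These were HPT1, which salvages hypoxanthine and guanine, and GUK1, the guanylate kinase. In all, 10 of the 32 other genes were at least 2-fold higher in N44 and 0 were at least 2-fold lower, against 3.03% and 7.88% of all genes. The rise was not general around the pathway. The median log2 difference was 0.47 for the 32 genes and −0.19 for the 12 salvage and interconversion genes. Lower in N44 were, among others, PNP1 (0.55-fold), LPD1 (0.60-fold) and YNK1 (0.61-fold).

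**Figure D4:**
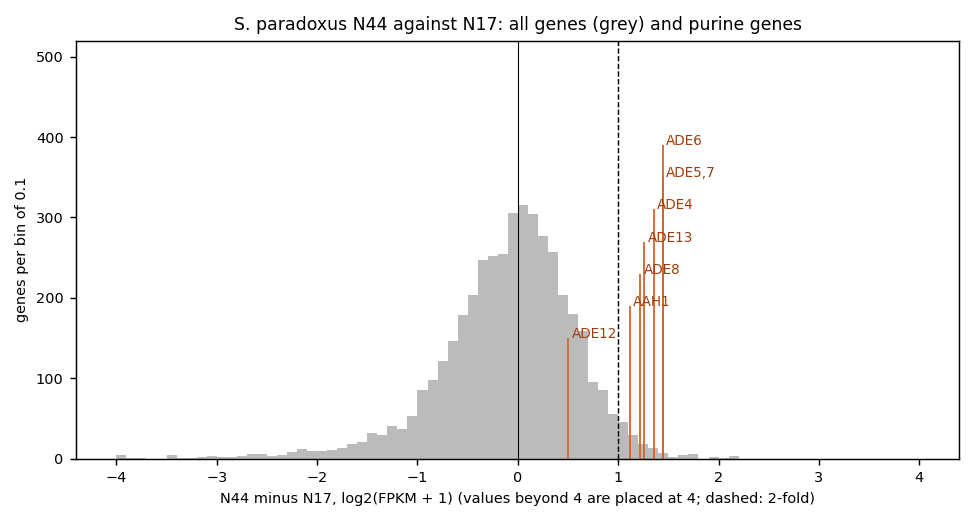
Number of genes (y axis) by the difference between N44 and N17 on the log2(FPKM + 1) scale (x axis, bins of 0.1; 1 value per strain); vertical lines mark the 7 valued purine genes, whose heights carry no value. Of these, 6 lie beyond the dashed 2-fold line, which 3.03% of the 4292 genes reach, and ADE12 lies at 0.50.

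Whether the genes move together was described by Pearson's r between pairs of genes over strains, on log2(FPKM + 1). Strains of 1 species share descent and each point of a strain comes from the same culture and library, so no p is given. Over the 9 strains the median r of the 28 pairs was 0.73, and 15 pairs (53.6%) had an r of at least 0.7. For all pairs of 4239 genes the median was 0.16 and 10.4% reached 0.7. Pairs with ADE5,7 rested on 8 strains and pairs with ADE17 on 7, or 6 where both were involved. The highest r was 0.93, between ADE13 and ADE12, followed by 0.92 for ADE5,7 with ADE17 and 0.91 for ADE4 with ADE6. The lowest values were 0.079 for ADE8 with ADE12 and 0.15 for ADE8 with AAH1.

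Within the 6 S. cerevisiae strains the median r was 0.66, and 11 of 28 pairs (39.3%) reached 0.7, against a median of 0.15 and 11.9% for all pairs of 4267 genes. ADE5,7, ADE8 and ADE17 had r of 0.78 to 0.92 with each other. ADE4 had r of 0.87 to 0.92 with ADE5,7, ADE6, ADE17 and AAH1. ADE13 and ADE12 had r of 0.92 with each other, and −0.088 and −0.35 with ADE8. Y9 was the highest S. cerevisiae strain for ADE13 and ADE12, and was below the S. cerevisiae mean for ADE8. With the mean of its species subtracted from each value, over 8 strains, the median r was 0.77. N17 and N44 then mirror each other around their mean, so they add 1 contrast and not separate points. In that contrast N44 was higher for all 7 valued genes, so it adds a positive share to each of their pairs, though r need not rise. Pairs with ADE17, which had no S. paradoxus value, gain nothing from it. Without the subtraction, the median r was 0.50 over 7 strains when YPS606 and N44 were left out, and 0.53 without N44 alone. YPS606 and N44 were the strains farthest from the median of the mean deviation.

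**Figure D5:**
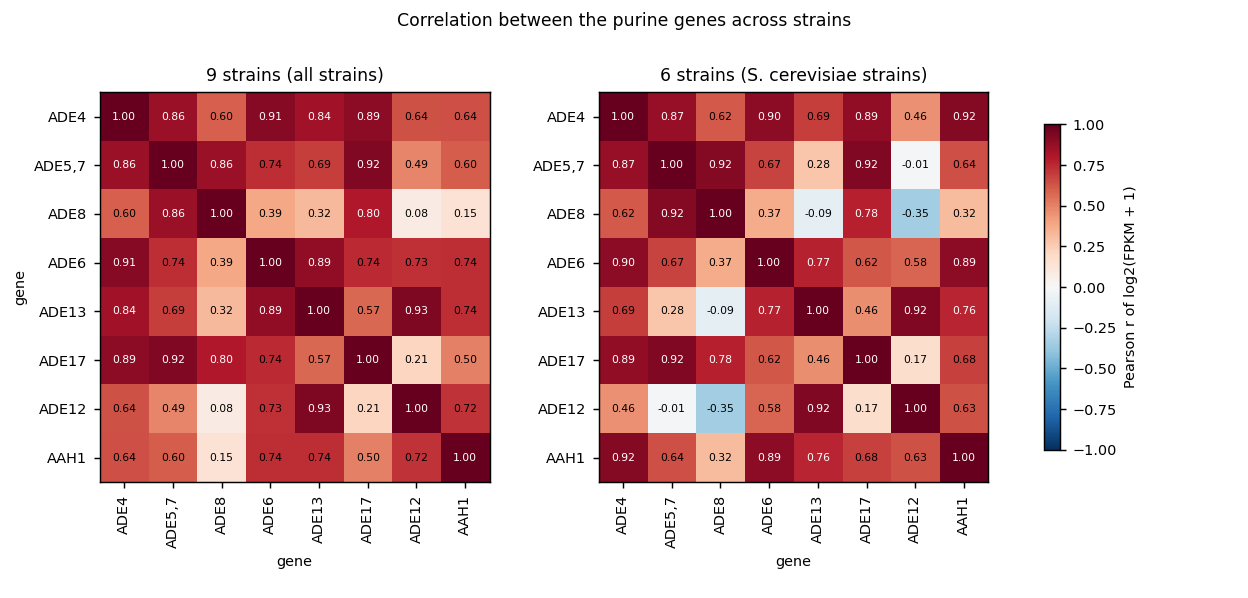
Pearson's r between each pair of purine genes on log2(FPKM + 1), over all 9 strains (left; fewer where a value is missing) and over the 6 S. cerevisiae strains (right), 1 value per strain. Most pairs are positive in both panels, with medians of 0.73 and 0.66, and the pairs of ADE8 and ADE12 lie lowest at 0.079 and −0.35.

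Genes outside the set were ranked by the r of their profile with the mean of the purine genes. Over the 9 strains, among 3813 genes, the nearest were PSE1 (0.985), a nuclear import receptor, FRS2 (0.948), a subunit of phenylalanyl-tRNA synthetase, ELO3 (0.947), a fatty acid elongase, TRM3 (0.937), a tRNA methyltransferase, and GUK1 (0.937). PSE1 was at 72.8 FPKM in YPS606 and 128 in N44, its lowest and highest levels. Over the 6 S. cerevisiae strains, among 4259 genes, they were DBP10 (0.994), an RNA helicase, NOP14 (0.993) and NOP9 (0.990), both nucleolar proteins, TRM3 (0.988) and ERB1 (0.988), a ribosome assembly factor. The r of ADE16 with the mean of the purine genes in the same 6 strains was −0.85, and that of ISN1, the IMP 5′-nucleotidase, was −0.76. HPT1 had 0.94 (rank 39) and SHM2 0.96 (rank 23). These pathway genes were picked after their values were seen, and the other listed pathway genes lay between −0.85 and 0.96.

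No purine gene passed the test between S. cerevisiae and S. paradoxus (limma with Benjamini-Hochberg adjustment over all genes, threshold 0.05). The count was 0 of 7, and 0 of 7 had an unadjusted p under 0.05, while 1027 of 4292 genes were called (23.9%). The log2 differences, S. cerevisiae minus S. paradoxus, ran from −0.71 (SE 0.41) for AAH1 to 0.49 (SE 0.39) for ADE8. Their median was −0.27, beside −0.31 for all genes, but it joined 2 unlike S. paradoxus strains. Without N17 the median of the purine genes was −0.90, with 0 of 7 positive, beside −0.29 for all genes. Without N44 it was 0.30, with 6 of 7 positive, beside −0.33 for all genes. With each strain centred on its own median, which moved the median of all genes from −0.31 to 0.024 and the calls from 107 higher and 920 lower to 306 and 340, the differences of ADE13 and ADE12 changed sign to 0.061 and 0.22. Limma adjusted p ran from 0.220 for ADE6 (log2 difference −0.59, SE 0.34) to 0.911 for ADE5,7 (0.064, SE 0.35). For all 7 genes the levels of the 6 S. cerevisiae strains overlapped those of N17 and N44 (of all genes, 35.9% had groups without overlap). Without N17, ADE6 was called lower in S. cerevisiae (log2 difference −1.32, limma adjusted p = 0.0268), and without N44 its difference was 0.13.

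Between S. cerevisiae and the lone S. mikatae strain, assumed to vary like the others, 0 of 7 purine genes were called and 0 of 7 had an unadjusted p under 0.05, against 1034 of 4254 genes called (24.3%). ADE4 came nearest, with a log2 difference, S. cerevisiae minus S. mikatae, of −1.01 (SE 0.48, limma adjusted p = 0.165). For ADE4, ADE6 and ADE17 all 6 S. cerevisiae strains lay below IFO1815, and 20.4% of all genes showed this pattern. The median difference of the 7 genes was −0.39, beside 0.14 for all genes, and that of AAH1 was 0.20 (SE 0.54).

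Habitat was compared as wild against non-wild. Over all strains, 5 wild against 4 non-wild, limma called 0 of 8 purine genes and 0 of 4300 genes (0%), and 0 purine genes and 99 genes had an unadjusted p under 0.05. The purine genes had a median log2 difference, wild minus non-wild, of 0.0088, with 4 of 8 positive, and leaving out 1 strain gave from 2 of 8 positive (without BC187 or N44) to 8 of 8 (without YPS606). Within S. cerevisiae, 2 wild against 4 non-wild, limma called 0 of 8 and 0 of 4273 genes (0%), with 0 purine genes and 57 genes at an unadjusted p under 0.05. Here 2 of 8 differences were positive, from 0 of 8 (without DBVPG1788 or BC187) to 6 of 8 (without YPS606). The wild strains YPS606 and DBVPG1788 had the lowest and the highest level of the species for ADE5,7 and ADE8, and nearly the same level of ADE12 (232 FPKM in both).

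Each S. cerevisiae strain was also set against the other 5, comparisons that share strains, with the lone strain assumed to vary like the others. Limma called 0 of 8 purine genes in each. All 8 were lower in YPS606, with a median log2 difference of −0.55 (6 of 8 after centring each strain on its median), and 5 of 8 lay below all other strains, a pattern of 31.7% of all genes (limma called 0.0234% of all genes). All 8 were also lower in BC187, with a median of −0.37, and 2 of 8 lay below all others (14% of all genes; 0.0234% called). In Y9, 6 of 8 were higher and 5 lay above all other strains, namely ADE4, ADE6, ADE13, ADE12 and AAH1 (18.7% of all genes; 0.0468% called). ADE13 in Y9 had a log2 difference of 0.74 (SE 0.27, unadjusted p = 0.0235 from limma, adjusted p = 0.967), the one unadjusted p under 0.05 among the purine genes in these 6 comparisons. YJM145 was higher for 7 of 8, with a median of 0.25 and 1 gene, ADE17, above all others (6.69%; 0% called). DBVPG1788 was higher for 6 of 8, with ADE5,7 and ADE8 above all others (23.7%; 0% called). DBVPG6040 was higher for 3 of 8, with ADE12 below all others (10.4%; 0.0936% called).

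The 39 other genes listed around the pathway included 32 with values. In S. cerevisiae against S. paradoxus limma called 3 higher, 3 lower and 26 neither, against 2.49% of all genes higher and 21.4% lower. ADE3, the trifunctional one-carbon enzyme, had levels of 217 to 322 FPKM in S. cerevisiae against 102 in N17 and 204 in N44, without overlap (log2 difference 0.82, SE 0.27, limma adjusted p = 0.0475). HIS1, the first enzyme of histidine synthesis, had 292 to 524 FPKM against 151 and 323, which overlapped (0.95, SE 0.31, limma adjusted p = 0.0490). XPT1, the xanthine phosphoribosyltransferase, had 101 to 163 FPKM against 78.9 and 62.5 (0.91, SE 0.24, limma adjusted p = 0.0213). These 3 were higher in S. cerevisiae. The call of ADE3 was lost without any 1 of 6 strains, N17 (log2 difference 0.33) and every S. cerevisiae strain but DBVPG6040. It was also lost with a minimum mean of 10, after quantile normalisation and with S. mikatae pooled into S. paradoxus, leaving 7 of 16 alternatives past the threshold. That of HIS1 was also lost without any 1 of 6, N17 (0.40) and every S. cerevisiae strain but YPS606, and under the same 3 other alternatives, so that 7 of 16 were past the threshold. XPT1 was past it in 14 of 16, and was not called without N17 (1.08, limma adjusted p = 0.0552) or N44 (0.74, limma adjusted p = 0.127).

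Lower in S. cerevisiae were AMD1, the AMP deaminase, at 40.4 to 65.5 FPKM against 126 in N17 and 88.8 in N44 (log2 difference −0.83, SE 0.24, limma adjusted p = 0.0305), and PNP1, the purine nucleoside phosphorylase, at 42.8 to 52.3 against 118 and 64.5 (−0.85, SE 0.23, limma adjusted p = 0.0234). MTD1 was also lower, at 75.4 to 170 FPKM against 212 and 525.6 (−1.65, SE 0.41, limma adjusted p = 0.0188). None of these 3 overlapped between the species. AMD1 was past the threshold in 10 of 16 alternatives and PNP1 in 11 of 16. Both were lost after quantile, median and chromosome median scaling, with the species pooled and without N17, and AMD1 also without BC187. In these the difference of AMD1 was as small as −0.49 (median centring) and that of PNP1 as small as −0.34 (chromosome median centring, limma adjusted p = 0.298). MTD1 was past it in 13 of 16, and was lost after median centring (−1.32, limma adjusted p = 0.0521), with the species pooled (−1.40, limma adjusted p = 0.0635) and without N44 (−0.996, limma adjusted p = 0.172). Against S. mikatae, limma called 2 of 29 tested genes, both higher in S. cerevisiae, a direction of 19.8% of all genes. XPT1 was at 45.5 FPKM in IFO1815 (log2 difference 1.52, SE 0.31, limma adjusted p = 0.00349). APT2, a copy of the adenine phosphoribosyltransferase APT1 that may share reads with it, had 36.8 to 89.9 FPKM against 15.8 in IFO1815 (1.93, SE 0.40, limma adjusted p = 0.00389). In the other 8 comparisons 0 of the 32 were called.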

How the data were processed

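The authors deposited 1 table of expression values, with a column per strain, and strain files that held the same values (38925 of 38925 compared). The authors deposited these values with no named unit. They are treated as FPKM, inferred from low values that were whole multiples of a length-scaled step in S. cerevisiae (tolerance 0.05, in at least 90% of them) and from the tools named. The FPKM values were made by the authors before deposit from reads handled with cutadapt, TopHat and Cufflinks and with build R64, per the submitters' processing notes. Versions and settings are not given in the sources used here, so coordinates are those of the R64 reference and 4284 genes matched its table.

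The genes and lists were chosen with earlier results of these data known. Genes named outside the set were those called in a comparison and the 5 nearest to the mean of the purine genes by r. The other genes given for N44 and N17, and ADE16, ISN1, HPT1 and SHM2 beside the nearest genes, were chosen after their values were seen. Differences were tested on log2(FPKM + 1), which understates changes of low genes, with limma 3.58.1 in R 4.3.3 (eBayes with trend, two-sided, Benjamini-Hochberg over all genes with a mean of at least 1, threshold 0.05). All 8 purine genes passed this filter. Genes lacking a value in some strains were kept where both groups had one. The fit was tested on simulated data. Species contrasts came from 1 fit of 3 species means. Whether the cultures of different strains were independent is not stated beyond 1 colony each, so p-values measure the spread between strains. No sequencing batch or date is given. Alternatives were a pseudocount of 0.1, no filter or a mean of at least 10, quantile, median and chromosome median scaling, leaving out each strain, and pooling S. paradoxus with S. mikatae.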

Additional observations from a re-analysis of the deposited data

Results flagged for a closer look

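ADE12 in Y9, the distillery strain, stood far from the other strains of its species. Its level was 324 FPKM, and the other 5 S. cerevisiae strains lay between 225 and 239 FPKM. The same value stood out among the 4 non-wild strains (324 FPKM against 225 to 239). Of 23 sets of strain values examined for the purine genes, 2 had a strain standing out in this way, where chance gives about 1.15. Both were this 1 value, because the 4 non-wild strains are among the S. cerevisiae strains, so the 2 are not separate finds. In the limma comparison of Y9 with the other 5 strains ADE12 was not called (log2 difference 0.48, SE 0.24, adjusted p = 0.999).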

How the results depend on the processing

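In the habitat and single-strain comparisons limma called almost no genes at all in any setting. A count of 0 purine genes was thus close to fixed in advance there, unlike in the species contrasts. Of 123 combinations of the 10 comparisons and their alternatives, 122 gave 0 purine genes called. The exception was S. cerevisiae against S. paradoxus without N17, where ADE6 was called, so leaving out 1 strain gave counts of 0 to 1. In the 2 species contrasts single purine genes changed sign in 13 combinations, none of them called, and the cause was not tested. In the other comparisons directions were followed as counts of positive differences. For wild against non-wild the 4 of 8 over all strains ranged from 2 to 8 over the alternatives, the 2 of 8 within S. cerevisiae from 0 to 6, and the 0 of 8 for YPS606 from 0 to 2. For the other 5 single strains the count moved by at most 1. Of the called other pathway genes, 90 of 124 combinations kept the call. Between S. cerevisiae and S. paradoxus, median centring gave 0.061 for ADE13 and 0.22 for ADE12, and chromosome median centring gave 0.23 and 0.18. Leaving out 1 strain gave −1.05 to 0.30 for ADE4, −1.32 to 0.13 for ADE6, −0.90 to 0.36 for ADE13, −0.37 to 0.14 for ADE12, −0.66 to 0.79 for ADE5,7 and −0.12 to 1.10 for ADE8. Between S. cerevisiae and S. mikatae, ADE12 was 0.10 after chromosome median centring and AAH1 −0.057 after quantile normalisation. The median r stayed within 1 SD over pairs (0.24 for 9 strains, 0.34 for 6) in every alternative run. That SD is the spread between gene pairs, not an error of the median, so the limit is wide. Leaving out 1 strain gave 0.53 to 0.75 and 0.60 to 0.74. Chromosome median centring gave 0.57 over 9 strains and 0.54 over 6, where the lowest pair was −0.84. Quantile normalisation gave 0.74 and 0.54. Without ADE12, an alternative added after seeing the data, the median r was 0.74 and 0.69. The 2-fold count of N44 over N17 was 6 of 7 in all 7 settings. Calls over all genes between S. cerevisiae and S. paradoxus fell from 1027 to 712 with chromosome median centring, 646 with median centring, 637 with quantile normalisation, 639 without N44, 419 without N17 and 276 with S. mikatae pooled into S. paradoxus. With 1 value per strain no error within a strain can be given, and the depth behind the S. paradoxus and S. mikatae values is unknown. No paired analysis was possible because each strain had 1 value and no label links cultures of different strains into pairs.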
